A study of Mus musculus with 13 samples.

Results

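Nuclei of the proximal convoluted tubule (PCT) of the mouse kidney were compared between newborn and adult animals by single nuclei ATAC-seq (snATAC-seq), in which Tn5 transposase cuts open chromatin and the fragments of each nucleus are sequenced. The nuclei were those that the deposited annotation assigns to the cluster PT, and they number 7412 of the 28316 nuclei of the series. Whole kidneys gave 2 samples at postnatal day 0 (P0), with 547 and 557 PCT nuclei, 1 sample at P21, with 1551, and 2 samples at P56, with 2459 and 2298. The P21 and P56 samples were grouped as adult, as in the study. No treatment or engineered allele is named for any sample, and neither sex nor strain is given for the snATAC-seq animals in the sources used here (the methods name C57BL/6 mice for the single-cell RNA samples of the study). The P0 samples are labelled P0, while the protocol describes mice of 1 day. Adult mice were perfused with buffer and their kidneys lysed in a larger volume than the P0 kidneys, so stage and preparation cannot be told apart. Nothing says that samples of a stage came from separate animals or litters, so the p-values below measure the spread between these 5 samples, which may be partly technical. The annotation was built on the same chromatin data, so which P0 nuclei counted as PCT also rests on these data.

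The proximal convoluted tubule takes back most of what the glomerulus filters. Sodium-coupled carriers of the brush border recover glucose, phosphate and amino acids, megalin and cubilin recover filtered protein, and the cells burn fatty acids and make glucose and ammonia. At birth the mouse kidney still forms nephrons from a progenitor pool, and newly formed tubules keep elongating and raise their transport capacity after birth. HNF4 factors help to set the identity of the segment, and nuclear receptors and clock output factors set the level of many of its enzymes.

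Among the called peaks, 5 show the pattern of the peak comparison, and their central stretches of 300 bp are printed here. They were read from the plus strand of GRCm38 (mm10). Capitals mark matches, on either strand, to short motifs searched in all peaks. These were the motif of NFI factors (TTGGCA), the D-box bound by the clock output factors DBP, TEF and HLF (TTATGTAA), a CEBP motif (TTGCNNAA), an HNF4 motif (CAAAGTCCA), a TEAD motif (ACATTCC) and a motif of SP and KLF factors (GGGCGG). A match is a run of letters and not a shown binding site. The stretches also hold matches that are not in capitals, to the RBPJ motif in that of Cyp4b1, to a steroid receptor motif in those of 1700020N01Rik and Ppara, and to the SOX motif in that of Ppara. The Cyp4b1 stretch, chr4:115645554-115645853, lies in an intron and belongs to the peak with the lowest p among those higher in the adult, with 1 NFI match.
Cyp4b1: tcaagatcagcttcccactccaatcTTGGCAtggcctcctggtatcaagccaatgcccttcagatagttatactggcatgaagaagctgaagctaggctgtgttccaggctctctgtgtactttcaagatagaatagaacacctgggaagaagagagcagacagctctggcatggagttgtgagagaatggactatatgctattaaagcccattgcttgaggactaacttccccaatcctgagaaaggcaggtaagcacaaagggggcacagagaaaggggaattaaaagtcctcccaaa
The stretch chr10:21553640-21553939 is intergenic, nearest to 1700020N01Rik, and is shown as a peak higher in the adult that holds a D-box match with an NFI and a CEBP match.
1700020N01Rik: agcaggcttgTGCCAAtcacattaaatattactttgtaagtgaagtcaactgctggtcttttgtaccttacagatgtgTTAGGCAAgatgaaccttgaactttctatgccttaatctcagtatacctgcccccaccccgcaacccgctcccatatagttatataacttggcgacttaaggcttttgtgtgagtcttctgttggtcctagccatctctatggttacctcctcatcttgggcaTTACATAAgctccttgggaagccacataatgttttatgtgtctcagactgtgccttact
The stretch chr15:85776977-85777276 lies in an intron of Ppara, the gene of the nuclear receptor PPARα, and is shown for its HNF4 match and 2 NFI matches.
Ppara: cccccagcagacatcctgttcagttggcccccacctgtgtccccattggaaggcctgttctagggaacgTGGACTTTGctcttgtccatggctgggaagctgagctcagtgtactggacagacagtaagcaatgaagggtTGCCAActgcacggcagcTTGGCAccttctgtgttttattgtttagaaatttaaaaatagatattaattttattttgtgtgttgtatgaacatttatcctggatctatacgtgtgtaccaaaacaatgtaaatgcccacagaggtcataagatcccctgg
The stretch chr2:50175800-50176099 lies in an intron of Lypd6 and is shown as a peak higher at P0 with a TEAD match.
Lypd6: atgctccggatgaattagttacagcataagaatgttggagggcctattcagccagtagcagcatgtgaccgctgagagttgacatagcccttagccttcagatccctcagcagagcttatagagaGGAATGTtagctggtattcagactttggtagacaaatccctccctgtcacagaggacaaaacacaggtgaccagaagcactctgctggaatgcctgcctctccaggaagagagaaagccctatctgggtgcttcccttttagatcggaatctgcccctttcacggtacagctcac
The stretch chr6:49215227-49215526 belongs to the start site peak of Igf2bp3, a fetal RNA-binding protein, with 2 SP/KLF matches.
Igf2bp3: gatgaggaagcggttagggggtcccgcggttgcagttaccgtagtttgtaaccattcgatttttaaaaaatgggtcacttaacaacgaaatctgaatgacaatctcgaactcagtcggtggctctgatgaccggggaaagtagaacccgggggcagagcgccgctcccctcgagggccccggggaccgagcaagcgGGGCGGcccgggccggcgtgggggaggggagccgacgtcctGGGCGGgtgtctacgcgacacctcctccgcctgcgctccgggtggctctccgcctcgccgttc

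The deposited matrix holds, for each nucleus and each of 300755 peaks, whether the peak was open, so a sum over nuclei counts open calls and not fragments. PCT nuclei of the P0 samples held 4041065 and 3345160 open calls, those of the P21 sample 9131677 and those of the P56 samples 10758653 and 17287332. The median nucleus had between 4206 and 7466 open peaks, the lowest and the highest both at P56. A peak open in 0 nuclei could be open in up to 0.548% and 0.539% of nuclei at P0 and up to between 0.122% and 0.193% in the adult samples, and a share near 10% had a Wilson 95% interval of 7.81% to 12.9% in P0 sample 1 and of 8.88% to 11.3% in P56 sample 1 (counting error only). Of 27834 distinct barcodes, 477 occurred in more than 1 sample, and 253 PCT nuclei carried such a barcode. Leaving those out gave 3648 genes higher at P0 and 2980 higher in the adult, against 3695 and 3048 with them. Peaks of 4 single-copy genes of the Y chromosome had 172 and 178 open calls in PCT nuclei at P0, 418 in P56 sample 1 and 0 in the P21 sample and P56 sample 2. Xist, on the X chromosome, had 16 and 12 open calls at P0, 45 in P56 sample 1, 191 at P21 and 311 in P56 sample 2. The absence of Y-linked open calls thus occurred in 2 of 3 adult samples and in neither P0 sample, and the counts over all genes and over all peaks are given below also with these calls as a covariate and in the 3 samples that have them. Counts of some gene lists are given so as well. The comparisons with other segments and the place of the P21 sample were not recomputed in this way.

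The label PCT was checked against 6 marker genes (Slc34a1, Slc5a2, Slc5a12, Slc7a7, Lrp2 and Akr1c21), and all 6 had their highest level in this cluster among the 13 cell types of the series. These levels were means over all 5 samples, so the P0 nuclei were not checked by themselves. The study annotated its proximal tubule clusters by open chromatin at Slc34a1, Slc5a2 and Akr1c21 in the same nuclei, so the check is independent of that choice at most for the other 3. Markers of other cell types were not absent. Summed over the 6 podocyte markers, the level was 344 and 348 per 1000000 open calls at P0 and 226 to 276 in the adult samples. The 6 endothelial markers summed to 67.6 and 73.2 at P0 and 34.8 to 40.4 in the adult, the 6 stromal markers to 80.2 and 83.7 against 44.5 to 52.8, and the 6 intercalated cell markers to 105 and 102 against 49.6 to 72.7. The 6 principal cell markers summed to 107 and 109 at P0 and 79.9 to 84.1 in the adult. Of the 6 markers of each of these 5 cell types 2 were called higher at P0, against 15.9% of all genes tested, and 1 principal cell marker, Fxyd4, was called higher in the adult. Of 6 nephron progenitor markers 3 were called higher at P0 and 1, Crym, higher in the adult. Their summed level was 127 and 124 at P0 and 115 to 133 in the adult samples. Crym made up most of that sum, at 84.1 and 92.97 at P0, and had its own highest level in PCT among the 13 cell types. Each of the other progenitor markers was lower in every adult sample than in both P0 samples, with log2 fold changes from -1.55 to -0.54. Of these, Six2 and Cited1 were not called. The 3 markers of the distal convoluted tubule summed to 153 and 148 at P0 and to 198 to 237 in the adult. The rise was in Slc12a3 alone, which was called higher in the adult (log2 fold change 1.05). Pvalb and Trpm6 went the other way and were not called, with log2 fold changes of -0.87 and -0.12. The 6 markers of the proximal straight tubule summed to 277 and 268 at P0 and 236 to 320 in the adult samples. Those of the loop of Henle summed to 124 and 116 against 106 to 120. Of each 6, 1 was called higher in the adult and 0 higher at P0, against 13.2% and 15.9% of all genes tested. The immune markers C1qb and C1qa had 0 open calls in at least 1 P0 sample, and no marker was at 0 in all samples. The part of other cells or free DNA in the values below was not tested.

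Gene activity is the sum of open calls over the peaks in a gene body and 2 kb upstream, and CPM is that sum per 1000000 open calls in gene windows after TMM scaling, which lines up the bulk of genes between samples. Of 23168 genes tested with the quasi-likelihood test of edgeR and called at a Benjamini-Hochberg adjusted p under 0.05, 3695 were higher at P0 (15.9%) and 3048 were higher in the adult (13.2%). The calls at P0 were larger, with a median absolute log2 fold change of 1.33 and 2581 genes past 2-fold. Calls on the adult side had a median of 0.66, and 722 passed 2-fold. Fold changes are given throughout as log2 of adult over P0 with the standard error. The split of the calls depends on the scaling. With the number of nuclei in place of summed open calls, the median of all genes moved from 0.02 to -0.30, and 4571 genes were called on the P0 side and 384 on the adult side. With Y-linked open calls as a covariate the counts were 2206 and 2860, and in the 3 samples with such calls 5005 and 5130. Without P0 sample 1 they were 740 and 705, without P0 sample 2 935 and 721, and without P56 sample 1 5118 and 4888. With 1 P0 sample left, the spread comes from the adult samples and the lone sample is assumed to vary like them, here and wherever a P0 sample is left out below. Both settings on Y-linked open calls set P56 sample 1 alone against both P0 samples, here and below, so they are not separate checks. In the fit of 3 samples the spread comes from the P0 samples only. In the covariate fit the P21 sample and P56 sample 2 add to the spread and not to the stage change. Stages that do not overlap are common, with every adult sample above both P0 samples in 28.3% of genes tested and below both in 30.4% (58.7% in all), and they held for all but 1 of the called genes.

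Genes of transport and metabolism held most of the list calls on the adult side. Genes of nephron progenitors, fetal growth and tubule claudins and keratins held most of those on the P0 side. The largest adult gain among transporters was in the sulfate carrier Slc13a1, and the largest P0 level relative to the adult among list genes was in the claudin gene Cldn4. The 15 gene lists were counted over the calls made among all genes, and a list's median log2 fold change can be read against 0.02 over all genes tested. List members named beyond the fixed rule (given with the methods) were chosen after their values were seen. Peaks counted within a gene below are those that its gene activity sums, so they are not separate support for it.

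**Figure D1:**
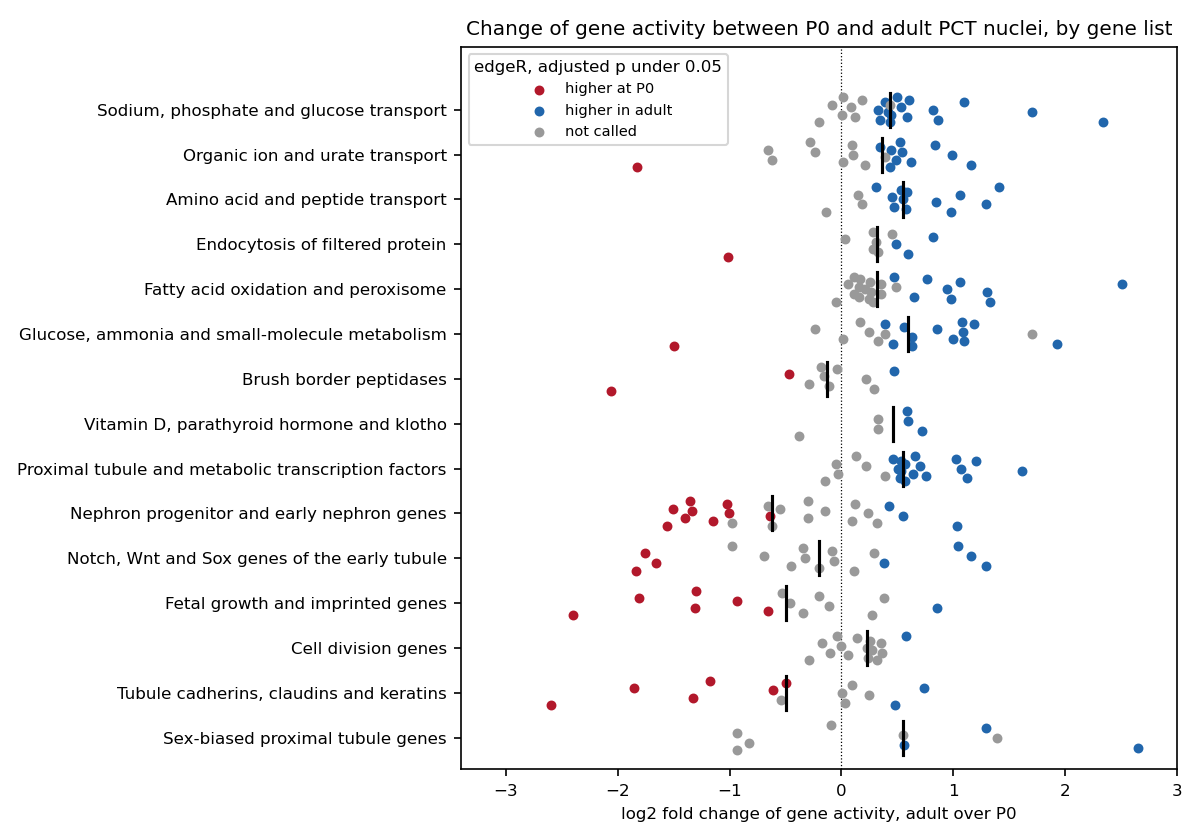
Log2 fold change of gene activity in PCT nuclei, adult over P0, for the tested members of 15 gene lists. Each point is a gene, colored by its edgeR call, and the black bar is the median of a list, which runs from -0.62 for nephron progenitor genes to 0.60 for glucose, ammonia and small-molecule metabolism.

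Of 23 genes for sodium, phosphate and glucose transport, 15 were higher in the adult (13.2% of all genes tested), 0 were higher at P0 (15.9% of all) and 8 were not called, with a median log2 fold change of 0.44. The 15 calls were 5 without P0 sample 1, 5 without P0 sample 2, 9 without P56 sample 2 and 8 with Y-linked open calls as a covariate, where the median was 0.22. Slc34a1, the main sodium-phosphate cotransporter of the brush border, measured 187 and 195 CPM in the P0 samples, 369 in the P21 sample, and 299.7 and 345 in the P56 samples. The P0 samples lay close together and below every adult sample, and the log2 fold change was 0.82 ± 0.12 (edgeR adjusted p = 0.00104). Slc5a2, which encodes the glucose carrier SGLT2, measured 17.7 and 18.9 CPM in the P0 samples, 67.2 in the P21 sample, and 49.9 and 61.9 in the P56 samples, with a log2 fold change of 1.71 ± 0.18 (edgeR adjusted p = 0.000253). Slc13a1, the sodium-sulfate cotransporter, measured 23.5 and 19.2 CPM in the P0 samples, 95.7 in the P21 sample, and 102 and 128 in the P56 samples (log2 fold change 2.34 ± 0.18, edgeR adjusted p = 8.72e-05). Of its 15 tested peaks, which that sum holds, 9 were higher in the adult and 0 at P0, against 16.3% and 17.6% of all peaks tested. For these 3 genes the lowest adult value was above both P0 values, as for 28.3% of all genes. Slc5a12, a lactate carrier, measured 65.4 and 55.2 CPM in the P0 samples, 137 in the P21 sample, and 113 and 139 in the P56 samples (log2 fold change 1.099 ± 0.14). The basolateral bicarbonate carrier Slc4a4 measured 422 and 402 CPM in the P0 samples, 798 in the P21 sample, and 700.3 and 762.2 in the P56 samples (log2 fold change 0.87 ± 0.11, edgeR adjusted p = 0.000512). Slc9a3, the sodium-proton exchanger NHE3, moved less and measured 164 and 152 CPM at P0 and 207, 183 and 204 CPM in the adult samples (log2 fold change 0.33 ± 0.11, edgeR adjusted p = 0.0455). Slc5a1 encodes the glucose carrier of the later proximal tubule and was not called. It measured 68.7 and 63.9 CPM at P0 and 58.04, 60.8 and 54.6 CPM in the adult samples. Slc34a3, a further phosphate carrier, was not called either, at 81.2 and 81.4 CPM at P0 and 78.7, 70.7 and 81.1 CPM in the adult samples. The water channel gene Aqp1 and the sodium pump regulator Fxyd2 were not called either, and their P0 and adult values overlapped.

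Amino acid and peptide carriers had the largest share of calls among the transport lists, with 12 of 15 tested genes higher in the adult (13.2% of all genes), 0 higher at P0 (15.9% of all) and a median log2 fold change of 0.55. These were 5 without P0 sample 1 and 4 without P0 sample 2. The dipeptide carrier Slc15a2 measured 19.1 and 16.3 CPM in the P0 samples, 39.5 in the P21 sample, and 51.05 and 50.9 in the P56 samples (log2 fold change 1.41 ± 0.18, edgeR adjusted p = 0.000593). The aromatic amino acid carrier Slc16a10 measured 107 and 103 CPM in the P0 samples, 231 in the P21 sample, and 206 and 223 in the P56 samples (log2 fold change 1.07 ± 0.11, edgeR adjusted p = 0.000262). Both had higher values in all adult samples, as for 28.3% of all genes tested. Every called gene of the list did so too, as did 3047 of the 3048 genes called higher in the adult. Slc6a20b, a proline carrier, measured 38.1 and 39.1 CPM at P0 and 66.5, 74.4 and 87.8 CPM in the adult samples (log2 fold change 0.98 ± 0.15). Slc6a19, Slc7a7 and Slc7a9, carriers of neutral, cationic and dibasic amino acids, moved by less. Slc6a19 measured 169.7 and 184 CPM at P0 and 240.2, 227 and 269 CPM in the adult samples (log2 fold change 0.47 ± 0.11, edgeR adjusted p = 0.0117). Slc7a7 measured 227 and 243 CPM at P0 and 309, 279.7 and 373 CPM in the adult samples (log2 fold change 0.45 ± 0.13, edgeR adjusted p = 0.0269), and Slc7a9 measured 62.9 and 65.3 CPM at P0 and 91.1, 87.5 and 103 CPM in the adult samples (log2 fold change 0.55 ± 0.13, edgeR adjusted p = 0.00894). Slc6a18, Slc3a2 and Slc36a2 were not called.

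Of 20 tested genes for organic ion and urate transport, 10 were higher in the adult (13.2% of all genes), 1 was higher at P0 (15.9% of all) and 9 were not called, with a median log2 fold change of 0.37. On the adult side 2 were called without P0 sample 1, 2 without P0 sample 2, 6 without P56 sample 2 and 6 with Y-linked open calls as a covariate, where the median was 0.23. The efflux pump Abcc4 measured 145 and 133 CPM in the P0 samples, 222 in the P21 sample, and 259.7 and 267 in the P56 samples (log2 fold change 0.84 ± 0.12, edgeR adjusted p = 0.00104). The phosphate and urate carrier Slc17a1 measured 74.9 and 69.9 CPM in the P0 samples, 130.2 in the P21 sample, and 128 and 174 in the P56 samples (log2 fold change 0.99 ± 0.16, edgeR adjusted p = 0.00152). The organic anion carrier OAT3, gene Slc22a8, measured 131 and 132 CPM at P0 and 192, 161 and 185 CPM in the adult samples (log2 fold change 0.45 ± 0.12, edgeR adjusted p = 0.0165). The related carrier OAT1, gene Slc22a6, was not called and measured 44.3 and 40.8 CPM at P0 and 25.6, 33.5 and 45.5 CPM in the adult samples, with P56 sample 2 above both P0 samples. Of the urate carriers Slc2a9 and Slc22a12, the first was called and the second was not. Slc2a9 measured 103 and 101.1 CPM at P0 and 126, 135 and 129 CPM in the adult samples (log2 fold change 0.35 ± 0.11, edgeR adjusted p = 0.0354). The urate exchanger Slc22a12 measured 40.5 and 41.1 CPM at P0 and 44.3, 43.2 and 53.8 CPM in the adult samples, and all 4 of its peaks also count for another gene. Slc22a7, the organic anion carrier OAT2, went the other way. It measured 35.8 and 41.97 CPM in the P0 samples, 12.6 in the P21 sample, and 11.8 and 8.67 in the P56 samples, so both P0 values were above every adult value. Its log2 fold change was -1.83 ± 0.21 (edgeR adjusted p = 0.000399).

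Of 10 tested genes for the endocytosis of filtered protein, 3 were higher in the adult (13.2% of all genes), 1 was higher at P0 (15.9% of all) and 6 were not called, with a median log2 fold change of 0.32. The 3 calls on the adult side were 0 without either P0 sample, where the medians were 0.32 and 0.35, 8 without P56 sample 1 and 5 in the 3 samples with Y-linked open calls, where the median was 0.21. Lrp2, which encodes megalin, measured 283 and 290.4 CPM in the P0 samples, 413 in the P21 sample, and 299 and 466 in the P56 samples (log2 fold change 0.45 ± 0.16, edgeR adjusted p = 0.0592). Its partner Cubn measured 81.2 and 78.6 CPM in the P0 samples, 95.5 in the P21 sample, and 94.6 and 109.8 in the P56 samples (log2 fold change 0.32 ± 0.12, edgeR adjusted p = 0.0677). Neither passed the test, nor did the adaptor Dab2, at 291 and 282 CPM at P0 and 333, 298 and 415 CPM in the adult samples. The members that passed were Fcgrt, the neonatal Fc receptor, at 38.6 and 34.6 CPM at P0 and 55.7, 68.9 and 69.5 CPM in the adult samples (log2 fold change 0.82 ± 0.15, edgeR adjusted p = 0.00336), the folate receptor Folr1 (log2 fold change 0.60 ± 0.12) and amnionless, Amn (log2 fold change 0.49 ± 0.13). Ocrl, the phosphatase mutated in Lowe syndrome, was higher at P0 and measured 24.01 and 18.9 CPM at P0 and 11.4, 9.72 and 10.9 CPM in the adult samples (log2 fold change -1.01 ± 0.22, edgeR adjusted p = 0.00722). Ocrl lies on the X chromosome.

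**Figure D2:**
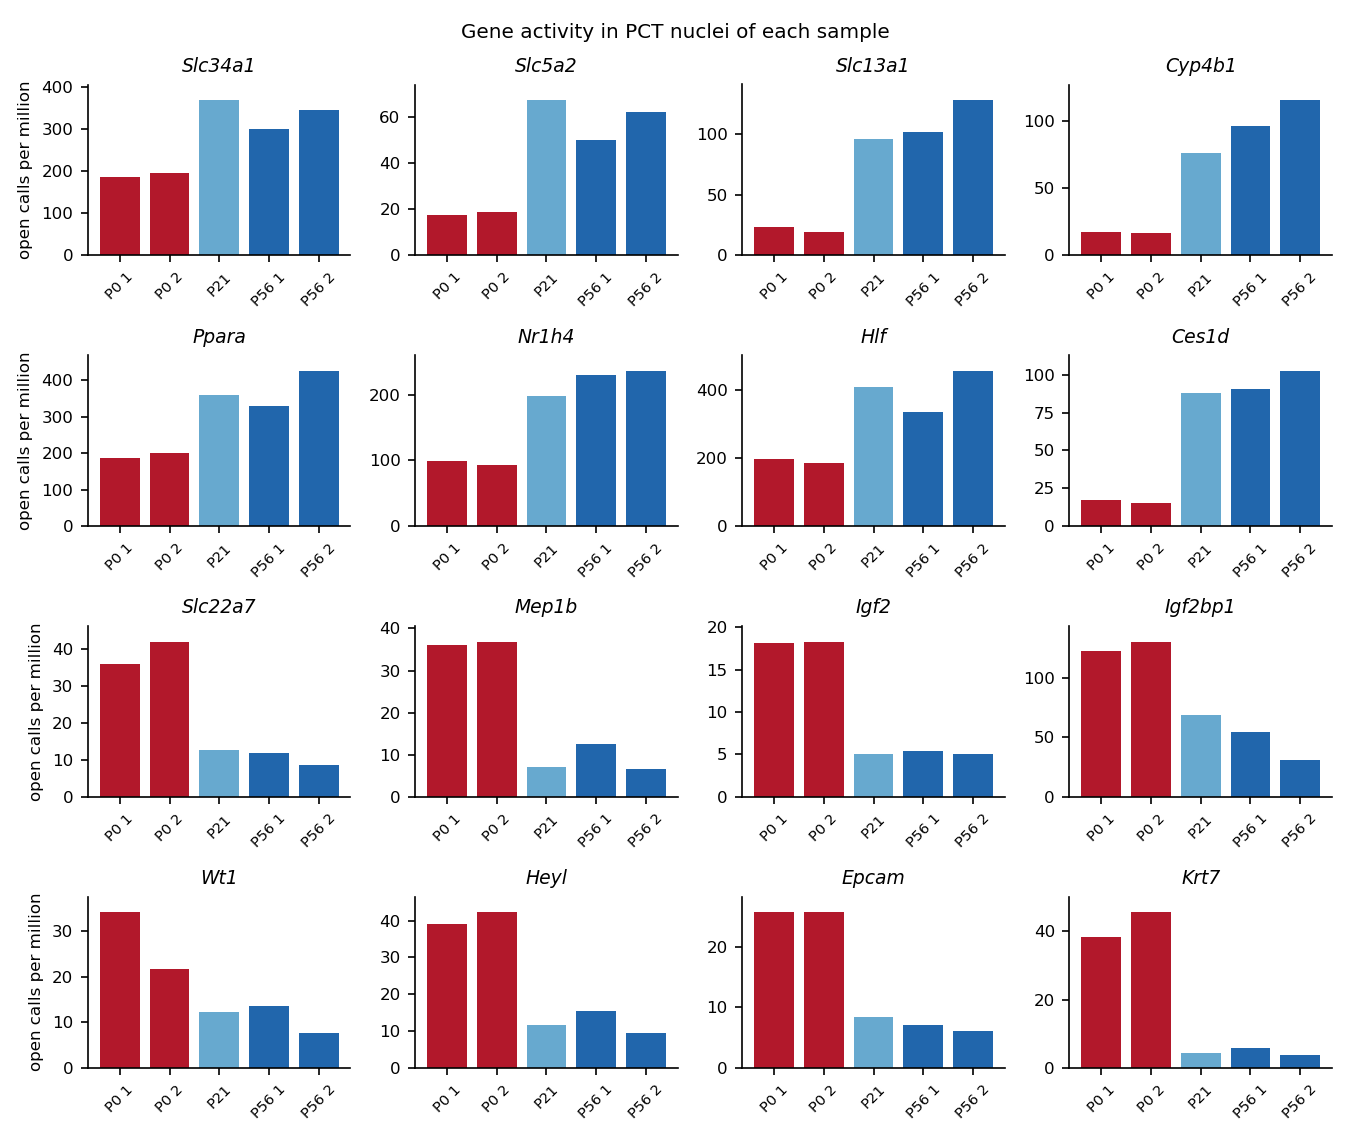
Gene activity in PCT nuclei of the 5 samples as CPM (bars from 0, red for P0, light blue for P21, dark blue for P56) for 16 genes. In the upper 8 panels every adult sample is above both P0 samples, as in 28.3% of all genes tested, and in the lower 8 every adult sample is below both, as in 30.4%.

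Of 24 genes for fatty acid oxidation and peroxisomes, 9 were higher in the adult (13.2% of all genes), 0 were higher at P0 (15.9% of all) and 15 were not called, with a median log2 fold change of 0.32. Ppara measured 188 and 200.3 CPM in the P0 samples, 361 in the P21 sample, and 331 and 426 in the P56 samples (log2 fold change 0.94 ± 0.13, edgeR adjusted p = 0.000768), and 12 of its 17 tested peaks were higher in the adult and 0 at P0, against 16.3% and 17.6% of all peaks tested. Its coactivator Ppargc1a measured 136 and 118 CPM at P0 and 202, 191 and 206 CPM in the adult samples (log2 fold change 0.65 ± 0.11, edgeR adjusted p = 0.00254). Cyp4b1, a fatty acid hydroxylase, measured 17.2 and 16.6 CPM in the P0 samples, 76.5 in the P21 sample, and 96.1 and 116 in the P56 samples, the largest gain of the list (log2 fold change 2.51 ± 0.20, edgeR adjusted p = 0.000103). Cyp4a14 measured 21.2 and 17.5 CPM at P0 and 37.4, 40.7 and 43.4 CPM in the adult samples (log2 fold change 1.06 ± 0.16, edgeR adjusted p = 0.00144). The medium-chain acyl-CoA ligase Acsm2 measured 52.03 and 45.9 CPM at P0 and 113, 117 and 141 CPM in the adult samples (log2 fold change 1.33 ± 0.14, edgeR adjusted p = 0.000299). Catalase, gene Cat, measured 84.05 and 91.5 CPM at P0 and 179.6, 148 and 191 CPM in the adult samples (log2 fold change 0.98 ± 0.14). The peroxisomal thiolase Acaa1b was also higher in the adult (log2 fold change 0.47 ± 0.13). The carnitine transferase gene Cpt1a was not called and measured 152 and 168 CPM at P0 and 171, 182 and 214 CPM in the adult samples. Acadm, a mitochondrial dehydrogenase, was not called and measured 98.6 and 108 CPM at P0 and 105, 85.9 and 109.9 CPM in the adult samples, and its P0 and adult values overlapped. Cpt2, Acadl, Acadvl, Hadha, Hadhb and Ehhadh did not pass the test. Esrra, a receptor that works with Ppargc1a, measured 102 and 116 CPM at P0 and 152, 117 and 149 CPM in the adult samples (edgeR adjusted p = 0.0826).

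Among 20 genes for glucose, ammonia and small-molecule metabolism, 12 were higher in the adult (13.2% of all genes), 1 was higher at P0 (15.9% of all) and 7 were not called, with a median log2 fold change of 0.60. The 12 calls were 3 without P0 sample 1 and 5 without P0 sample 2. Pck1, a key enzyme of glucose production, measured 80.04 and 74.4 CPM in the P0 samples, 115 in the P21 sample, and 116 and 128 in the P56 samples (log2 fold change 0.63 ± 0.12, edgeR adjusted p = 0.00348). Miox, the inositol oxygenase of the renal cortex, measured 36.02 and 36.3 CPM in the P0 samples, 81.03 in the P21 sample, and 66.7 and 83.3 in the P56 samples (log2 fold change 1.09 ± 0.15, edgeR adjusted p = 0.000754). Both enzymes had P0 values close to each other and a clear gap to the adult samples. The choline pathway enzyme Bhmt measured 27.1 and 22.8 CPM at P0 and 46.98, 55.8 and 55.4 CPM in the adult samples (log2 fold change 1.08 ± 0.16, edgeR adjusted p = 0.00109). Keg1 had the largest fold of those called, at 29.4 and 27.3 CPM at P0 and 72.4, 69.02 and 182 CPM in the adult samples, with P56 sample 2 far above the other adult samples (log2 fold change 1.93 ± 0.40), and 5 of its 9 peaks also count for another gene. Akr1c21, a steroid dehydrogenase and marker of the segment, was not called and measured 4.94 and 2.53 CPM in the P0 samples, 3.87 in the P21 sample, and 21.2 and 12.2 in the P56 samples, so that the P21 value lay between the P0 values and both P56 values lay above them. Slc38a3, the glutamine carrier that feeds ammonia formation, was higher at P0 and measured 58.9 and 62.8 CPM in the P0 samples, 15.5 in the P21 sample, and 22.3 and 26.2 in the P56 samples (log2 fold change -1.50 ± 0.20, edgeR adjusted p = 0.000654), and all 5 of its tested peaks had the same direction. Of all peaks tested 17.6% were higher at P0.

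Of 10 tested genes of brush border peptidases, 2 were higher at P0, 1 was higher in the adult and 7 were not called, with a median log2 fold change of -0.13, against 15.9% and 13.2% called over all genes. The counts were 1 and 0 without either P0 sample and 3 and 2 without P56 sample 1, and were 1 and 1 with Y-linked open calls as a covariate. Mep1b, which encodes the beta subunit of meprin, measured 36.02 and 36.9 CPM in the P0 samples, 7.19 in the P21 sample, and 12.5 and 6.71 in the P56 samples (log2 fold change -2.06 ± 0.27, edgeR adjusted p = 0.000597). Mep1a, the alpha subunit, was not called and measured 98.6 and 95.2 CPM at P0 and 85.3, 85.5 and 85.8 CPM in the adult samples. Dpp4 measured 141 and 124 CPM at P0 and 109, 93.9 and 84.8 CPM in the adult samples (log2 fold change -0.47 ± 0.13, edgeR adjusted p = 0.0234), and 22 of its 24 peaks also count for another gene. The aminopeptidase gene Enpep was higher in the adult and measured 76.5 and 73.8 CPM at P0 and 104, 112 and 96.3 CPM in the adult samples (log2 fold change 0.47 ± 0.12, edgeR adjusted p = 0.0151). Among 6 genes of vitamin D, parathyroid hormone and klotho, 3 were higher in the adult and 3 were not called, with a median of 0.46. Of these 6 genes 0 were called higher in the adult without P0 sample 1, 1 without P0 sample 2 and 5 without P56 sample 1, and the median was 0.24 with Y-linked open calls as a covariate. The vitamin D receptor Vdr measured 141 and 152 CPM at P0 and 242, 215 and 267 CPM in the adult samples (log2 fold change 0.72 ± 0.12, edgeR adjusted p = 0.00217), and the FGF23 coreceptor Kl measured 65.9 and 63.1 CPM at P0 and 102, 84.4 and 106 CPM in the adult samples (log2 fold change 0.59 ± 0.14, edgeR adjusted p = 0.00890). Neither enzyme of active vitamin D turnover was called. Cyp27b1, which makes the hormone, measured 42.1 and 34.4 CPM at P0 and 30.1, 35.4 and 23.6 CPM in the adult samples. Cyp24a1, which degrades it, measured 43.8 and 64.5 CPM at P0 and 74.2, 37.7 and 90.5 CPM in the adult samples, with P56 sample 1 below both P0 samples.

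Of 22 proximal tubule and metabolic transcription factors, 16 were higher in the adult and 0 at P0, against 13.2% and 15.9% of all genes, with a median log2 fold change of 0.55. The 16 calls were 6 without P0 sample 1 and 6 without P0 sample 2. In the 3 samples with Y-linked open calls 17 were higher in the adult and 3 at P0. Hnf4a, a factor of segment identity, measured 292 and 318 CPM in the P0 samples, 457 in the P21 sample, and 363 and 477 in the P56 samples (log2 fold change 0.50 ± 0.13, edgeR adjusted p = 0.0158). Maf measured 102 and 107 CPM at P0 and 142, 132 and 157 CPM in the adult samples (log2 fold change 0.46 ± 0.12, edgeR adjusted p = 0.0151). Both were higher in the adult by small folds. Nr1h4, Klf15 and Bhlhe41 had larger log2 fold changes. Nr1h4, the bile acid receptor FXR, measured 99.6 and 92.4 CPM in the P0 samples, 198 in the P21 sample, and 230.2 and 237 in the P56 samples (log2 fold change 1.21 ± 0.12, edgeR adjusted p = 0.000251). Klf15, a glucocorticoid-induced factor, measured 56.3 and 57.7 CPM in the P0 samples, 103 in the P21 sample, and 112 and 158 in the P56 samples (log2 fold change 1.13 ± 0.18, edgeR adjusted p = 0.00188). The clock repressor Bhlhe41 measured 17.2 and 15.8 CPM in the P0 samples, 45.7 in the P21 sample, and 37.2 and 68.5 in the P56 samples (log2 fold change 1.62 ± 0.26). All 4 of its peaks, which that sum holds, had that direction, against 16.3% of all peaks tested. For these 3 factors P56 sample 2 had the highest value and the P0 samples the lowest. Of the D-box factors, Hlf measured 197 and 185 CPM in the P0 samples, 409 in the P21 sample, and 336 and 457 in the P56 samples (log2 fold change 1.07 ± 0.14, edgeR adjusted p = 0.000600), with log2 fold changes of 0.66 ± 0.13 for Tef and 0.71 ± 0.19 for Dbp. Nfia and Nfib, which encode NFI factors, changed by 0.76 ± 0.12 and 0.53 ± 0.11. Of their tested peaks, 23 of 38 for Nfia and 13 of 42 for Nfib were higher in the adult, against 16.3% of all peaks tested.

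Genes of nephron progenitors and the early nephron held 9 genes higher at P0 (15.9% of all genes) and 3 higher in the adult among 23, the latter near the 13.2% of all genes, with a median log2 fold change of -0.62. The 9 calls at P0 were 2 without P0 sample 1, where the median was -0.40, 2 without P0 sample 2, 5 with Y-linked open calls as a covariate and 4 from promoter peaks, and the 3 in the adult were 1 without either P0 sample. Wt1, a progenitor and podocyte factor, measured 34.1 and 21.7 CPM in the P0 samples, 12.2 in the P21 sample, and 13.4 and 7.69 in the P56 samples, with P0 sample 1 above P0 sample 2 and both above the adult (log2 fold change -1.35 ± 0.28, edgeR adjusted p = 0.00587). Wnt4, which drives the conversion of progenitors into epithelium, measured 16.9 and 21.7 CPM at P0 and 8.62, 5.99 and 5.91 CPM in the adult samples (log2 fold change -1.50 ± 0.27, edgeR adjusted p = 0.00285). The adhesion gene Ncam1 measured 194 and 199 CPM at P0 and 120.3, 105 and 69.7 CPM in the adult samples (log2 fold change -1.01 ± 0.19, edgeR adjusted p = 0.00342). For these genes each adult value was below both P0 values, as for 30.4% of all genes. Meox1, Uncx, Hoxa11, Eya1, Hoxd11 and Cdh4 were the other genes higher at P0, with log2 fold changes from -1.55 to -0.64. The progenitor gene Six2 was at 4.47 and 3.38 CPM at P0 and 3.10, 2.55 and 2.15 CPM in the adult samples and was not called. Pax2 and Pax8 were not called. Pax2 measured 152 and 146 CPM at P0 and 163, 154 and 167 CPM in the adult samples, and Pax8 measured 233 and 239.97 CPM at P0 and 268, 229.9 and 262 CPM in the adult samples. Cdh6, a cadherin of the early proximal tubule, was not called at 87.1 and 89.004 CPM at P0 and 74.6, 82.2 and 58.3 CPM in the adult samples. Sall1, Emx2 and Lhx1 were higher in the adult. Sall1 measured 74.6 and 67.03 CPM in the P0 samples, 151 in the P21 sample, and 118 and 166 in the P56 samples (log2 fold change 1.03 ± 0.16, edgeR adjusted p = 0.00138). Lhx1 measured 43.3 and 47.3 CPM at P0 and 56.7, 60.7 and 64.9 CPM in the adult samples (log2 fold change 0.43 ± 0.13, edgeR adjusted p = 0.0343).

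Of 17 signalling genes of the early tubule, 3 were higher at P0 and 4 higher in the adult, against 15.9% and 13.2% of all genes, with a median log2 fold change of -0.20. Without P0 sample 2 the 4 were 2, and in the 3 samples with Y-linked open calls 6 were higher at P0. The Notch target Heyl measured 39.1 and 42.2 CPM in the P0 samples, 11.5 in the P21 sample, and 15.3 and 9.41 in the P56 samples (log2 fold change -1.76 ± 0.22, edgeR adjusted p = 0.000528). Lfng, which modifies Notch receptors, measured 14.1 and 18.9 CPM at P0 and 4.75, 5.30 and 3.81 CPM in the adult samples (log2 fold change -1.84 ± 0.28, edgeR adjusted p = 0.00130). Sox11 measured 8.48 and 5.35 CPM at P0 and 2.87, 1.96 and 1.85 CPM in the adult samples (log2 fold change -1.66 ± 0.37, edgeR adjusted p = 0.00771). All 3 were low in the adult samples. The Notch target Hes1 went the other way and measured 30.4 and 30.98 CPM in the P0 samples, 77.9 in the P21 sample, and 62.8 and 84.04 in the P56 samples (log2 fold change 1.29 ± 0.16, edgeR adjusted p = 0.000573), and so did the ligand Dll1, at 30.1 and 26.2 CPM at P0 and 57.5, 72.6 and 59.7 CPM in the adult samples (log2 fold change 1.16 ± 0.16, edgeR adjusted p = 0.000822). All 4 peaks of Dll1 also count for another gene. Ccnd1 had a log2 fold change of 1.05 ± 0.19. Notch2, the receptor of proximal fate, measured 222 and 209.6 CPM at P0 and 271, 287 and 287 CPM in the adult samples (log2 fold change 0.39 ± 0.10, edgeR adjusted p = 0.0172). The ligand Jag1 was not called, at 110.4 and 116 CPM at P0 and 104, 82.95 and 84.2 CPM in the adult samples. Sox4 and Sox9 were not called either, and Sox9 was low in every sample, at 2.35 and 3.10 CPM at P0 and 2.10, 2.45 and 1.48 CPM in the adult samples.

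Fetal growth and imprinted genes held 6 genes higher at P0 (15.9% of all genes) and 1 higher in the adult (13.2% of all) among 14 tested, with a median log2 fold change of -0.49. The 6 calls at P0 were 3 without P0 sample 1 and 1 without P0 sample 2. Igf2, the fetal growth factor, measured 18.1 and 18.3 CPM in the P0 samples, 5.08 in the P21 sample, and 5.40 and 5.04 in the P56 samples. All 6 of its tested peaks were higher at P0, against 17.6% of all peaks tested, and all of them were shared with an overlapping gene. The log2 fold change of Igf2 was -1.81 ± 0.24 (edgeR adjusted p = 0.000695). Igf2bp1, which encodes a fetal RNA-binding protein, measured 122 and 130.4 CPM in the P0 samples, 69.1 in the P21 sample, and 54.9 and 30.9 in the P56 samples (log2 fold change -1.30 ± 0.25, edgeR adjusted p = 0.00417). Its relative Igf2bp3 measured 145 and 152 CPM in the P0 samples, 90.3 in the P21 sample, and 98.4 and 93.6 in the P56 samples (log2 fold change -0.65 ± 0.11, edgeR adjusted p = 0.00192). For Igf2bp1 the 3 adult values were spread, with P21 the highest and P56 sample 2 the lowest. Lin28b, a repressor of let-7 miRNAs, measured 13.7 and 9.86 CPM at P0 and 5.42, 8.05 and 5.11 CPM in the adult samples (log2 fold change -0.94 ± 0.31, edgeR adjusted p = 0.0411), and Mest and Dlk1 changed by -1.31 ± 0.32 and -2.40 ± 0.59, the latter with 1.88 and 2.25 CPM at P0 and 0.663, 0.393 and 0.185 CPM in the adult samples. The receptor Igf1r was higher in the adult, at 393 and 374 CPM at P0 and 674, 673 and 736 CPM in the adult samples (log2 fold change 0.86 ± 0.10, edgeR adjusted p = 0.000493). Of 15 cell division genes 14 were not called and 1 was higher in the adult (13.2% of all genes), with a median of 0.23, which was 0.12 without the P21 sample and 0.092 without P56 sample 2. The adult side held 6 calls without P56 sample 1 and 0 without any other single sample. With Y-linked open calls as a covariate 0 were called and the median was -0.06, and in the 3 samples with such calls 2 were higher at P0, 1 higher in the adult and the median was -0.07. The proliferation marker Mki67 measured 20.7 and 19.998 CPM at P0 and 31.5, 20.2 and 26.6 CPM in the adult samples. The exception, Top2a, was higher in the adult at 21.4 and 25.6 CPM at P0 and 37.03, 30.4 and 37.5 CPM in the adult samples (log2 fold change 0.58 ± 0.17, edgeR adjusted p = 0.0281).

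Among 13 cadherins, claudins and keratins of the tubule, 6 were higher at P0 (15.9% of all genes) and 2 were higher in the adult, near the 13.2% of all genes, with a median log2 fold change of -0.50. These were 2 and 0 without either P0 sample, and the 2 in the adult were 1 without P56 sample 2. The median was -0.31 without P56 sample 2 and -0.26 with Y-linked open calls as a covariate. Cldn4 measured 8.24 and 6.20 CPM in the P0 samples, 0.884 in the P21 sample, and 1.57 and 1.11 in the P56 samples (log2 fold change -2.60 ± 0.38, edgeR adjusted p = 0.00104), and Epcam, an adhesion protein of distal and newly formed epithelium, measured 25.7 and 25.6 CPM in the P0 samples, 8.40 in the P21 sample, and 6.97 and 6.09 in the P56 samples (log2 fold change -1.85 ± 0.23, edgeR adjusted p = 0.000563). The keratin genes Krt18 and Krt8 changed by -1.33 ± 0.31 and -0.50 ± 0.13, and Cldn6, a claudin of fetal epithelium, by -0.61 ± 0.14, though with promoter peaks alone the value of Cldn6 was 0.077. N-cadherin, gene Cdh2, the main cadherin of the proximal tubule, measured 69.2 and 67.9 CPM at P0 and 138, 113 and 92.8 CPM in the adult samples (log2 fold change 0.74 ± 0.16, edgeR adjusted p = 0.00817), while E-cadherin, gene Cdh1, was not called at 103 and 100.8 CPM at P0 and 98.4, 115 and 100.5 CPM in the adult samples.

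A list of genes known to differ between male and female proximal tubules is given beside the Y-linked open calls, which were absent from 2 adult samples. Of 9 tested genes, 3 were higher in the adult (13.2% of all genes), 0 were higher at P0 (15.9% of all) and 6 were not called, with a median of 0.56. Without P56 sample 1, the adult sample with Y-linked open calls, 3 were higher in the adult, 3 were higher at P0 and the median was 0.03. Without P0 sample 2, 1 was higher in the adult and the median was 0.26. In the 3 samples with Y-linked open calls 5 were higher in the adult. The median was -0.08 from promoter peaks and -0.06 with no filter, the latter over 11 genes. The list was not split by the sex in which a gene is higher, so its median has no direction with respect to sex. Prlr, the prolactin receptor, measured 134 and 119 CPM in the P0 samples, 153 in the P21 sample, and 188 and 220.2 in the P56 samples (log2 fold change 0.56 ± 0.15, edgeR adjusted p = 0.0203). Cyp2e1 measured 4.24 and 3.94 CPM in the P0 samples, 24.8 in the P21 sample, and 28.96 and 23.9 in the P56 samples (log2 fold change 2.65 ± 0.25). Cyp2j13 was not called and measured 37.7 and 25.6 CPM in the P0 samples, 7.19 in the P21 sample, and 30.6 and 12.2 in the P56 samples, so its lowest values were in the 2 samples without Y-linked open calls. Kap, a gene with sex-biased expression in the kidney, was not called and measured 4.71 and 2.82 CPM at P0 and 2.87, 10.5 and 3.57 CPM in the adult samples, the highest in P56 sample 1, which has such calls. Slco1a1 was under the count minimum in these nuclei and was not tested. The part of sex in the list was not tested.

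The adult calls of these lists also depended on scaling. With the number of nuclei as the scale, 2 of 23 sodium, phosphate and glucose genes and 1 of 22 transcription factors were called higher in the adult, and their medians were 0.16 and 0.23 while that of all genes was -0.30. Amino acid and peptide carriers held 1 of 15, so they no longer had the largest share of the transport lists. Organic ion and urate genes held 0 of 20 and 2 higher at P0, and fatty acid genes 1 of 24 with a median of 0.0099. The progenitor list held 11 genes higher at P0 and 0 higher in the adult on that scale.

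Ranked by p among protein-coding genes with at least a 2-fold change and no overlap, the top 10 on the adult side were Ces1d, Col4a3, Col4a4, Folh1, BC049352, Limch1, Fads1, Tmprss4, Slc13a1 and Pcdh1. Ces1d, a carboxylesterase, measured 16.9 and 15.2 CPM in the P0 samples, 87.99 in the P21 sample, and 90.6 and 103 in the P56 samples (log2 fold change 2.54 ± 0.16, edgeR adjusted p = 5.42e-05). Col4a3 and Col4a4, the paired basement membrane collagen genes mutated in Alport syndrome, are neighbors on chromosome 1. Col4a3 measured 75.8 and 81.7 CPM in the P0 samples, 268 in the P21 sample, and 276 and 294 in the P56 samples. Of its 16 tested peaks 14 were higher in the adult and 1 at P0, against 16.3% and 17.6% of all peaks tested. The sum that ranked the gene holds these same peaks, so they are not separate support. Col4a4 measured 24.7 and 22.5 CPM in the P0 samples, 92.6 in the P21 sample, and 100.1 and 95.2 in the P56 samples. Their log2 fold changes were 1.83 ± 0.11 and 2.02 ± 0.14, and a few peaks count for more than 1 gene (3 of 23 for Col4a3 and 2 of 21 for Col4a4). In both genes the 3 adult values were close together. Folh1, which encodes a glutamate carboxypeptidase of the brush border, measured 25.9 and 24.8 CPM in the P0 samples, 105 in the P21 sample, and 94.6 and 117 in the P56 samples (log2 fold change 2.06 ± 0.15, edgeR adjusted p = 7.58e-05). The fatty acid desaturase gene Fads1 measured 36.7 and 33.5 CPM in the P0 samples, 121 in the P21 sample, and 111 and 126 in the P56 samples (log2 fold change 1.76 ± 0.13, edgeR adjusted p = 7.58e-05). BC049352 and Tmprss4 overlap on chromosome 9, and 8 of 17 peaks of BC049352 and 9 of 10 peaks of Tmprss4 also count for another gene. From peaks of 1 gene window alone, the gene activity of BC049352 had a log2 fold change of 1.36 (edgeR adjusted p = 0.000393). The P0 and adult values of Limch1 were 76.04 and 66.8 CPM at P0 and 215, 219 and 209.7 CPM in the adult samples, and those of the protocadherin gene Pcdh1 59.1 and 59.4 CPM at P0 and 162, 192 and 191 CPM in the adult samples.

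The top 10 on the P0 side were Sez6l, Krt7, Pfkp, Itpr3, Cldn19, AI661453, Dlgap1, Vwa5b1, Cldn7 and Kcnn1. Krt7, a keratin of ducts and simple epithelia, had the largest change of the 10 and measured 38.4 and 45.6 CPM in the P0 samples, 4.42 in the P21 sample, and 5.79 and 3.75 in the P56 samples (log2 fold change -3.18 ± 0.23, edgeR adjusted p = 7.58e-05). Cldn7 measured 25.9 and 28.2 CPM in the P0 samples, 5.31 in the P21 sample, and 4.52 and 4.18 in the P56 samples (log2 fold change -2.54 ± 0.24, edgeR adjusted p = 0.000158). Cldn19, a claudin of the thick ascending limb, measured 43.1 and 51.3 CPM at P0 and 7.85, 7.36 and 10.5 CPM in the adult samples (log2 fold change -2.44 ± 0.20), where 3 of 4 peaks also count for another gene. For these genes every adult value was far below both P0 values. Pfkp, the platelet form of the glycolytic enzyme phosphofructokinase, measured 104 and 101.4 CPM in the P0 samples, 26.1 in the P21 sample, and 30.6 and 22.6 in the P56 samples (log2 fold change -1.96 ± 0.15, edgeR adjusted p = 7.58e-05), and all 9 of its tested peaks were higher at P0. Itpr3, an inositol trisphosphate receptor, measured 43.1 and 37.5 CPM at P0 and 8.73, 6.68 and 7.14 CPM in the adult samples (log2 fold change -2.43 ± 0.20), with all 8 tested peaks higher at P0. Of all peaks tested 17.6% were higher at P0, and the sums that ranked Pfkp and Itpr3 hold these same peaks. The P0 and adult values did not overlap in any of the 10 genes, as the rule required. Sez6l measured 63.8 and 59.99 CPM at P0 and 10.8, 12.8 and 9.90 CPM in the adult samples (log2 fold change -2.48 ± 0.16). Summed markers of intercalated cells and principal cells, which also express keratins and claudins, had larger sums at P0 as given above, and their part in these values was not tested.

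The P21 sample was set against both stages with genes called in a fit of P0 against P56 alone, which did not use it. Of 3142 genes higher at P0 than at P56, 96.6% had a P21 level nearer to P56 in unlogged CPM. The median gene had gone 0.90 of the way on the log2 scale. Of 2618 genes higher at P56, 78.2% were nearer to P56 and the median was 0.81. Peaks gave 94.4% of 20220 and 73.5% of 17768. Peg3, an imprinted gene, measured 95.8 and 107 CPM in the P0 samples, 119 in the P21 sample, and 58.5 and 64.2 in the P56 samples, so that P21 was the highest of all. It was not called.

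Single peaks were compared in the same way. Of 115761 peaks tested, 20390 were higher at P0 (17.6%) and 18832 were higher in the adult (16.3%), with median absolute log2 fold changes of 2.04 and 1.63 and 10529 and 6707 peaks past 4-fold. On the scaled values, every adult sample was above both P0 samples in 29.1% of peaks tested and below both in 31.3% (60.4% in all). With the number of nuclei as the scale these counts were 28555 and 9231, with Y-linked open calls as a covariate 11775 and 14734, and in the 3 samples with such calls 18898 and 23810. Without P0 sample 1 they were 5864 and 7158, and without P0 sample 2 7459 and 7640. Start site peaks made up 10.9% of those higher at P0, 8.32% of those higher in the adult and 18.2% of those not called, and introns held 43.3%, 52.7% and 42.5%.

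Of the 20 peaks named by rank, the top 10 of each direction, 9 lay in introns, 9 between genes, 1 in an exon and 1 at a start site. Introns and exons were those of any gene of the annotation. The gene named is that of the nearest protein-coding start site, so they can differ. In an intron of Cyp4b1, chr4:115645407-115645999, whose central stretch is printed above, the peak was open in 1 of 547 and 1 of 557 nuclei at P0 and in 20.95%, 17.6% and 33.99% of nuclei in the adult samples, all far above P0. The peak in Frmd4b, chr6:97449869-97450347, was open in 1 and 0 nuclei at P0 and in 14.8%, 11.8% and 20.8% in the adult samples. The intergenic peak nearest 1700020N01Rik, chr10:21553387-21554191, was open in 3.66% and 1.97% of nuclei at P0 and 28.7%, 22.9% and 33.4% in the adult samples (log2 fold change 3.72 ± 0.27, edgeR adjusted p = 1.18e-05). All 3 were rare at P0 and open in more than 10% of nuclei of every adult sample. The intron peaks nearest Fam13a and Adamts9 and the intergenic peaks nearest Gramd3, Ppp2r3a, Cyp2b19, Hoxc4 and Car1 were the others. Each was open in under 2% of nuclei in both P0 samples and in over 11% in every adult sample. On the P0 side, the peak in Lypd6, chr2:50175479-50176419, was open in 19.01% and 16.9% of nuclei at P0 and 0.580%, 0.285% and 0.435% in the adult samples (log2 fold change -5.02 ± 0.30, edgeR adjusted p = 1.18e-05). The start site peak was that of Git2, a GTPase activator, chr5:114743653-114744334, open in 12.1% and 10.6% of nuclei at P0 and 0.193%, 0.122% and 0.218% in the adult samples. The exon peak nearest the start site of Kank1, chr19:25200258-25201162, was the most open at P0 of the 10. It was open in 27.4% and 23.5% of nuclei at P0 and 2.51%, 2.03% and 2.79% in the adult samples. Peaks at Unc5cl, Cops8, Rab3gap1, Ccp110, Agap1, Fam241b and Limk2 had P0 shares between 8.08% and 18.3% and adult shares below 1%.

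**Figure D3:**
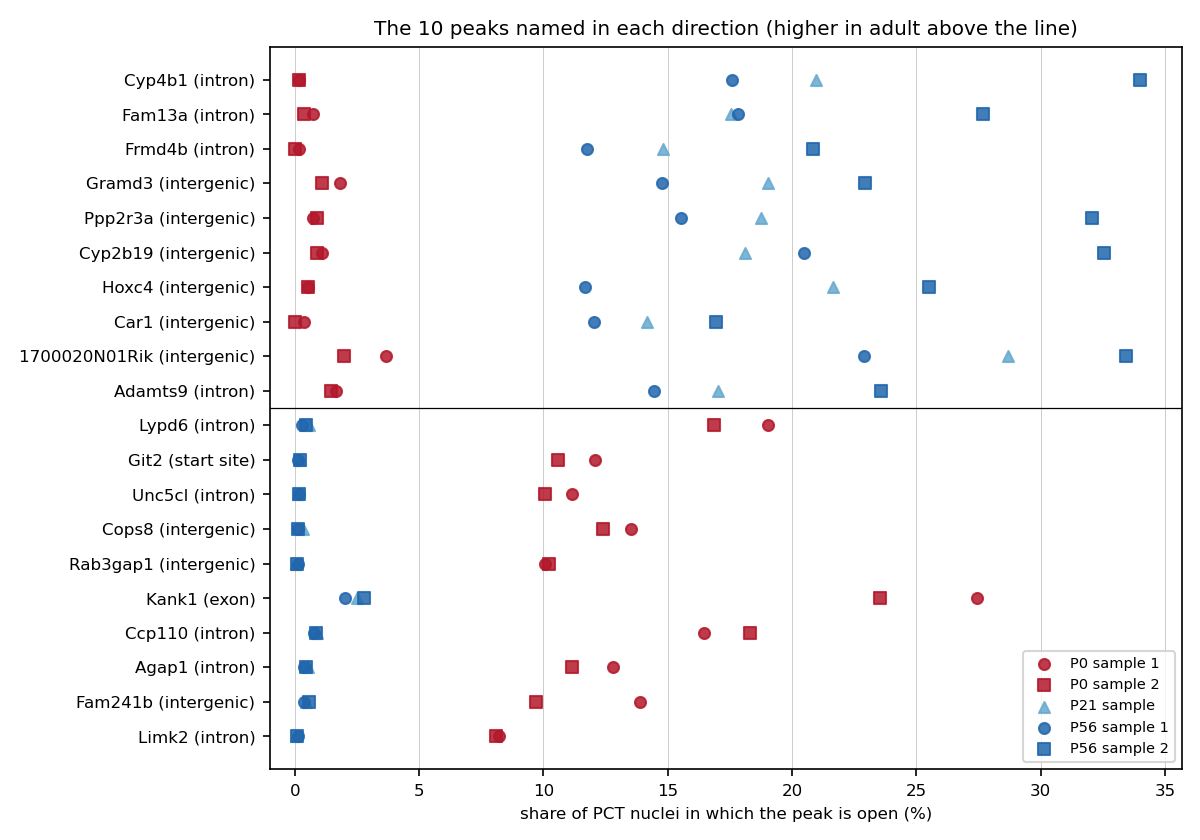
Share of PCT nuclei in which each of 20 peaks is open, in percent, with 1 marker per sample (red for P0, light blue for P21, dark blue for P56). The upper 10 peaks, led by the intron peak of Cyp4b1, are open in at most 3.66% of nuclei at P0, and the lower 10, led by Lypd6, in at most 2.79% in the adult. Labels name the gene of the nearest start site, and an intron or exon may be of another gene.

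Start site peaks of several main transporters were open in a large share of nuclei at both stages. Of the 49 start site peaks of the genes followed one by one, 15 were higher in the adult (16.3% of all peaks tested), 4 were higher at P0 (17.6% of all) and 30 were not called. Shares of nuclei are not scaled for depth while the calls are, and the median PCT nucleus had the fewest open peaks in P56 sample 1, so a share there can lie under the P0 shares at a peak called higher in the adult. The start site peak of Slc34a1, chr13:55399480-55400242, was open in 31.99% and 29.4% of nuclei at P0 and 44.5%, 22.5% and 50.6% in the adult samples (log2 fold change 0.69 ± 0.24, edgeR adjusted p = 0.0407). The start site peak of Slc6a19, chr13:73692355-73693092, was open in 55.8% and 51.3% of nuclei at P0 and 52.1%, 32.1% and 67.2% in the adult samples and was not called. That of Lrp2, chr2:69585477-69586589, was open in 42.4% and 33.8% of nuclei at P0 and 40.5%, 21.8% and 57.1% in the adult samples and was not called either. For Lrp2 the intron peak with the lowest p, chr2:69570523-69571280, was open in 7.495% and 7.002% of nuclei at P0 and 22.8%, 11.96% and 31.6% in the adult samples, which is a choice by p and is given as a description. The start site peak of Hnf4a was not called, and that of Nr1h4, chr10:89506274-89507168, was open in 9.51% and 6.82% of nuclei at P0 and 19.1%, 11.9% and 24.2% in the adult samples (log2 fold change 1.53 ± 0.23, edgeR adjusted p = 0.000410).

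Peaks with opposite directions occurred within the same gene. The start site peak of Pax2, chr19:44755465-44757395, was open in 27.4% and 22.3% of nuclei at P0 and 32.2%, 18.99% and 41.8% in the adult samples and was called higher in the adult (log2 fold change 0.66 ± 0.22, edgeR adjusted p = 0.0340). An intron peak of Pax2, chr19:44825898-44826912, was open in 9.51% and 7.18% of nuclei at P0 and 1.42%, 1.42% and 1.57% in the adult samples (log2 fold change -2.09 ± 0.30, edgeR adjusted p = 0.000293). The gene as a whole was not called. At Igf2bp3 the start site peak, chr6:49214812-49215940, whose central stretch is printed above, was open in 10.97% and 8.98% of nuclei at P0 and 0.580%, 0.122% and 0.696% in the adult samples (log2 fold change -4.09 ± 0.41, edgeR adjusted p = 3.77e-05), a wider gap than that of the gene's summed activity. The start site peak of Sox11, chr12:27342283-27343996, was open in 6.58% and 3.41% of nuclei at P0 and 1.68%, 0.813% and 1.31% in the adult samples (log2 fold change -1.60 ± 0.38). That of Wt1, chr2:105126283-105127641, was open in 15.5% and 6.64% of nuclei at P0 and 4.84%, 3.74% and 3.87% in the adult samples (log2 fold change -0.98 ± 0.30). Both were higher at P0, and P0 sample 1 had the higher share. In the intron peak of Ppara printed above, chr15:85776868-85777384, the shares were 9.51% and 7.36% of nuclei at P0 and 16.7%, 13.1% and 28.9% in the adult samples (log2 fold change 1.56 ± 0.25). Prlr had a start site peak at chr15:10223918-10224325 that was open in 5.85% and 3.41% of nuclei at P0 and 12.1%, 10.04% and 20.02% in the adult samples (log2 fold change 1.97 ± 0.27, edgeR adjusted p = 0.000205).

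For the comparison, 20 motifs were searched on both strands of the central 300 bp of 115717 tested peaks, with no correction for peaks that hold several motifs. Of the 1496 peaks with the D-box, 40.3% were higher in the adult and 7.49% were higher at P0, against 16.3% and 17.6% of all peaks searched, and their median log2 fold change was 0.75 against 0.02. Read the other way, the D-box was held by 3.20% of peaks higher in the adult, 0.549% of those higher at P0 and 1.29% of all. HNF4 motifs were held by 1692 peaks (1.46% of all), of which 28.8% were higher in the adult and 12.5% at P0. The nuclear receptor motif DR1 (GGTCAAAGG, 0.669% of all) gave 26.2% and 10.9%. The NFI motif, short and held by 17.0% of all peaks, gave 23.4% and 14.9%, and the CEBP motif, held by 11.8%, gave 20.9% and 15.4%.

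Other motifs had the larger share on the P0 side. Of 6400 peaks with the TEAD motif (5.53% of all), 22.0% were called on the P0 side and 15.6% on the adult side. The RBPJ motif of Notch signalling (GTGGGAA, 6.72% of all) gave 19.5% and 14.9%, and an AP-2 motif (GCCNNNGGC, 12.04% of all) gave 18.2% and 13.6%. The SP/KLF motif, held by 15.0% of all peaks, gave 15.9% and 8.42%, both below the shares over all peaks. Of its 17407 peaks, 7960 lay away from start sites, and these gave 22.3% and 12.01%, against 18.5% and 17.6% of all peaks away from start sites. Motifs of SOX, HOX and POU factors differed by less than 3 points between the directions. Base composition moves with the direction, with a median GC content of 50.3% in peaks higher at P0 and 46.7% in peaks higher in the adult. When peaks were split into 5 bins of GC content, the D-box, HNF4, DR1, NFI and CEBP motifs were more frequent among peaks higher in the adult in 5 of 5 bins. The TEAD, RBPJ, SP/KLF and HOX motifs were so in 0 of 5, and AP-2 in 4 of 5, the reverse of its pooled direction. In whole peaks the D-box was held by 5.56% of those higher in the adult and 1.32% of those higher at P0. Over the alternative tests, SP/KLF was held by 12.67% to 19.58% of peaks higher at P0 and 4.93% to 17.75% of those higher in the adult. These ranges overlap, as do those of AP-2 (11.87% to 15.23% and 9.13% to 13.78%). Those of the D-box, HNF4, DR1, NFI, CEBP, TEAD and RBPJ motifs did not overlap.

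**Figure D4:**
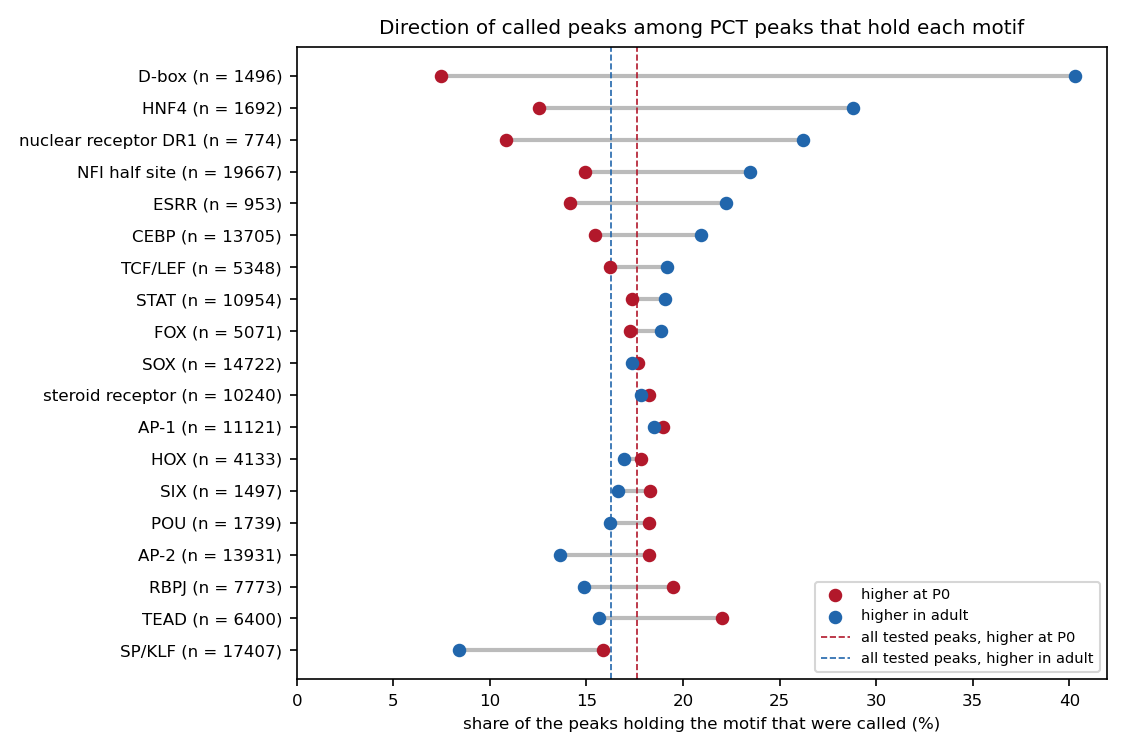
Share of the tested PCT peaks holding each of 19 motifs that were called higher at P0 (red) or higher in the adult (blue), in percent, with the shares over all peaks searched as dashed lines. D-box peaks have the widest gap toward the adult, 40.3% against 7.49%.

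The loop of Henle and the straight part of the proximal tubule were used to show where PCT differs, with the stage change of PCT minus that of the other segment tested as an interaction across all genes. The sums of both segments of the same 5 samples entered the fit, with the sample as a block. Against the loop of Henle (3628 nuclei), 4454 of 23455 genes moved more toward the adult in PCT (19%) and 4145 more toward P0 (17.7%). Of 240 list genes tested, 125 were called. Of 142 genes called among those on the lists or named by rank, 92 were called without P0 sample 1 and 79 without P0 sample 2. For 594 genes both segments were called with opposite directions, 367 of them higher in the adult in PCT. List genes among these include Slc22a8, Abcg2, Bhmt, Cdh2 and Lhx1. The log2 fold change of Slc22a8 was 0.45 in PCT and -1.33 in the loop (difference 1.82 ± 0.27, edgeR adjusted p = 0.000244). Bhmt gave 1.08 and -1.34 (difference 2.47 ± 0.33, edgeR adjusted p = 0.000120). Cdh2 gave 0.74 and -2.17 (difference 2.92 ± 0.24, edgeR adjusted p = 4.64e-06), and Lhx1 0.43 and -1.68. Cpt1a, not called in PCT, moved more toward the adult in the loop. It gave 0.25 and 1.12 (difference -0.87 ± 0.12, edgeR adjusted p = 0.000148). Fxyd2, which encodes a regulatory subunit of the sodium pump, did so as well, with 0.13 and 2.50 (difference -2.39 ± 0.15, edgeR adjusted p = 7.63e-07). Without P0 sample 2 the counts over all genes were 1962 and 1531, and without P0 sample 1 they were 1979 and 2102.

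The proximal straight tubule (PST, cluster PT2, 1943 nuclei) follows the PCT along the nephron and differed from it at few genes. Of 22490 genes tested, 362 moved more toward the adult in PCT (1.61%) and 420 more toward P0 (1.87%), and 26 of 238 list genes were called. Of 34 genes called among those on the lists or named by rank, 7 were called without P0 sample 1 and 10 without P0 sample 2. The log2 fold change of Slc22a7 was -1.83 in PCT and 0.72 in PST (difference -2.63 ± 0.27, edgeR adjusted p = 0.000127). Mep1b changed by -2.06 and 0.85 (difference -2.98 ± 0.27, edgeR adjusted p = 7.00e-05), and Slc38a3 by -1.50 and 0.17 (difference -1.70 ± 0.23, edgeR adjusted p = 0.000948). These 3 genes were higher at P0 in PCT, while in PST the first 2 were higher in the adult and Slc38a3 was not called. Slc7a12, a carrier of the straight segment, gave -0.10 and 2.06 (difference -2.17 ± 0.31, edgeR adjusted p = 0.00137). The bile salt carrier gene Slc51a gave 0.52 and -0.78 (difference 1.26 ± 0.22, edgeR adjusted p = 0.00541). Dll1 gave 1.16 and -0.63 (difference 1.77 ± 0.21, edgeR adjusted p = 0.000349). The PST had only 83 and 112 nuclei at P0, and without P0 sample 1 the counts over all genes fell to 26 and 46, and without P0 sample 2 to 39 and 51.

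**Figure D5:**
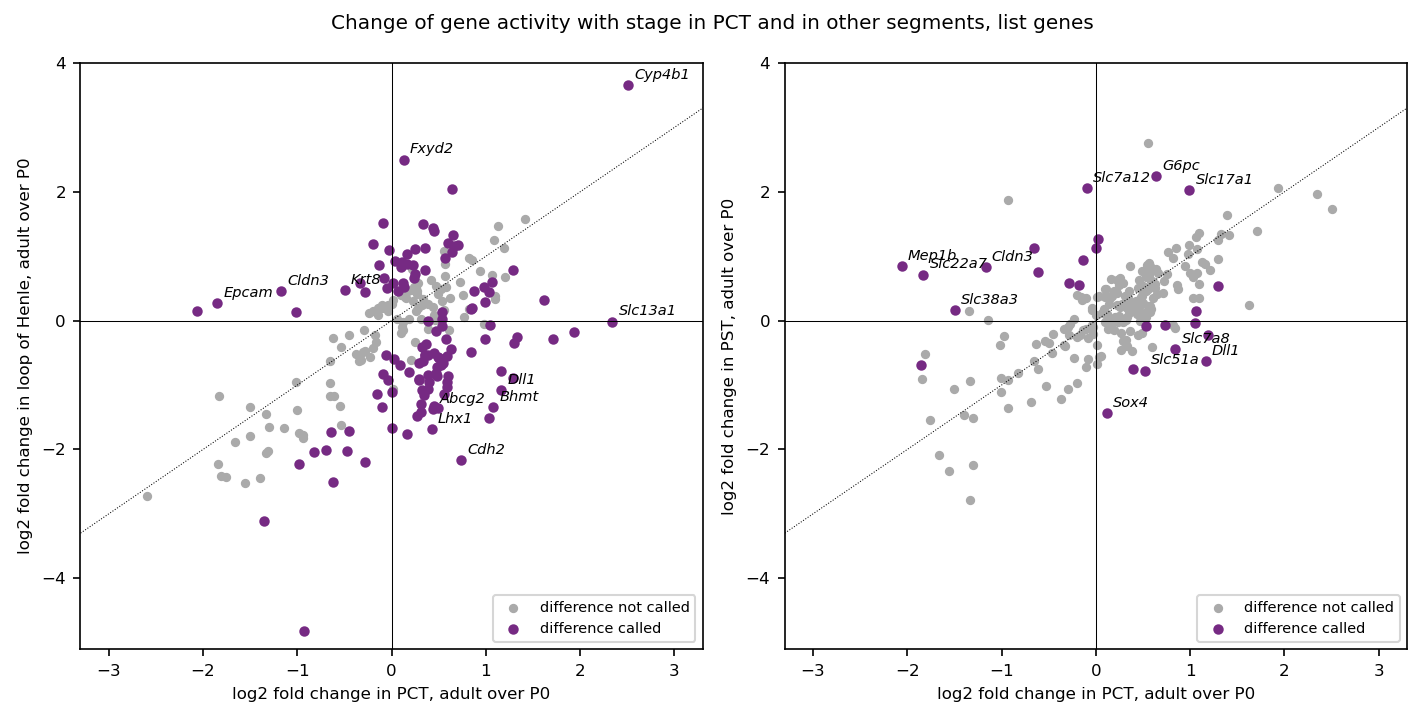
Log2 fold change of gene activity, adult over P0, of the list genes in PCT (horizontal) against the loop of Henle (left, vertical) and the PST (right, vertical), with genes whose difference between segments was called by edgeR in purple. In the left panel 125 of 240 tested genes were called and in the right panel 26 of 238, where Slc22a7, Mep1b and Slc38a3 lie left of 0 in PCT and above 0 in the PST.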

How the data were processed

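Open chromatin of single nuclei was measured in whole mouse kidneys. The counts used here are sums of the deposited cell-by-peak matrix, which the authors binarized, with 1 where a nucleus had a fragment in a peak, and did not scale for depth (89197 entries stored as 0 were read as closed). Per the methods, the authors aligned reads to mm10 with Cell Ranger ATAC 1.1.0, filtered barcodes on fragment number, mitochondrial reads and reads in promoters, used SnapATAC and Harmony for clustering, and called peaks with MACS2 on the pooled fragments of each cell type before merging them. Peaks thus rest on all stages together, and a cell type with few nuclei adds fewer peaks. The sample and cluster of each nucleus are from the deposited metadata. Doublets were not searched for. The number of per-sample columns left unused was 0.

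Open calls of PCT nuclei were summed per sample, per peak and per gene (GENCODE M21 gene body and 2 kb upstream), so a peak in several windows counts for each. The quasi-likelihood test of edgeR 4.0.16 (with limma 3.58.1, under R 4.3.3) was applied after TMM scaling to features that passed filterByExpr (count 10, total 15), with calls at a BH adjusted p under 0.05. DESeq2 1.42.0 was an alternative. The standard error is the absolute log2 fold change over the square root of F. The tests of other segments used sums of both segments, the sample as a block and the interaction of segment and stage. Python 3.11.15 (matplotlib 3.10.9, numba 0.67.0, numpy 2.4.6, scipy 1.17.1, pandas 2.3.3) served for sums, motifs and figures. Motifs and printed stretches were read from the RefSeq sequence of GRCm38.p6, peaks in mm10 counted from 1. On simulated data with 200 altered features, the test recovered 67.5% of 4-fold changes over 115761 peaks and 92.5% over 23168 genes for P0 against adult PCT, with 13 unaltered peaks and 18 unaltered genes called beside the 135 and 185 recovered. The simulation gave all features the same spread between samples and altered far fewer features than were called in the data. Its rates may therefore not hold for the data.

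A few list genes and 1 motif are not reported here, though counts over lists include them. Otherwise values are given for a core of 50 list genes and up to 3 further members of each list with the smallest adjusted p, for the 10 genes and the 10 peaks of each direction with the smallest p among those changed at least 2-fold with no overlap between stages (genes protein-coding, peaks open in at least 5% of nuclei in the higher stage), and for the start site peak and the lowest-p peak of each core gene. Other members were named after their values were seen. The members and lists were chosen with earlier results of these data known. P0 and P56 samples carry the same numbers in the labels, but nothing ties equal numbers to shared animals or days, and the deviations of the samples numbered 1 correlated at 0.0628 over peaks and 0.176 over genes. Alternatives were DESeq2, its size factors, the number of nuclei as scale, no filter, nuclei thinned to 1000 open peaks (37, 19, 40, 54 and 7 shallower nuclei left out of the P0, P21 and P56 samples in that order), 547 nuclei per sample, each sample left out, a replicate block, a test of nuclei by Fisher's exact test, promoter peaks and peaks of 1 gene window. Nuclei without shared barcodes and the alternatives on Y-linked open calls were chosen after seeing the data. The list gene Tmem27 matched no gene of the annotation, and H19, Slco1a1 and Cyp4a12a were under the count minimum. The single-cell RNA-seq and bulk data were not analysed here.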

Additional observations from a re-analysis of the deposited data

Results flagged for a closer look

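By the interaction test of edgeR, the stage change of 21 of 240 list genes in PCT differed from that in the loop of Henle. These genes were also called in opposite directions in the 2 segments, as were 594 of 23455 genes over all. Against the PST the same held for 4 of 238 list genes and for 43 of 22490 genes over all. All but 1 of these list genes are given here. Among transporters, the log2 change in PCT minus that in the loop was 0.909 for Slc13a2, 1.24 for Slc26a1, 1.82 for Slc22a8, 1.89 for Slc47a1, 1.33 for Abcc4, 1.87 for Abcg2, 1.54 for Slc2a9, 1.77 for Slc6a13 and 1.16 for Slc3a1. Genes of protein uptake, metabolism and vitamin D gave differences of 1.18 for Amn, 2.47 for Bhmt, 1.27 for Enpep and 1.64 for Cyp2r1. Receptors and developmental genes gave differences of 1.77 for Prlr, 2.14 for Lhx1 and 2.26 for Dll1. Junction and keratin genes gave 2.92 for Cdh2, 1.36 for Cldn1, -0.986 for Krt8 and -1.63 for Cldn3, so Krt8 and Cldn3 were the exceptions that moved more toward P0 in PCT.

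Against the PST, the log2 change in PCT minus that in the PST was -2.63 for the anion carrier Slc22a7, -2.98 for the meprin gene Mep1b, -2.02 for the claudin gene Cldn3 and 1.26 for the bile salt carrier gene Slc51a. The PST sums at P0 come from 83 and 112 nuclei.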

How the results depend on the processing

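Of 142 genes called on the lists or by rank, 133 were called with DESeq2, 139 with its size factors, 50 with the number of nuclei as scale, 85 after thinning, 108 with Y-linked open calls as a covariate, 65 without either P0 sample and 142 without P56 sample 1. Genes higher at P0 and in the adult numbered 932 and 1000 after thinning, 2206 and 2860 with the Y covariate, 5005 and 5130 in samples with Y-linked calls, 2100 and 1586 from promoter peaks, and 4571 and 384 with nuclei as scale. Peaks numbered 12369 and 13953 with DESeq2, 2042 and 2977 after thinning, 12329 and 12114 with equal nuclei, 11775 and 14734 with the Y covariate, 48440 and 19436 by Fisher's exact test over nuclei, 28555 and 9231 with nuclei as scale, and 17385 and 33374 with no filter. Leaving out 1 sample gave 740 to 5118 and 705 to 4888 genes, and 5864 to 20220 and 7158 to 20016 peaks. Against the loop it gave 1531 to 4515 toward P0 and 1962 to 5036 toward the adult, and against the PST 46 to 700 and 26 to 492. With the replicate block, 4126 and 3226 genes and 20094 and 18638 peaks were called, and 1 of the 142 calls was lost. Signs reversed for Acsm1 (-1.36) and Notch3 (-0.79) in peaks of 1 gene window, for Cyp24a1 (-0.51, start site peak -0.42), Ccne1 (-0.40) and the Cyp24a1 exon peak nearest Pfdn4 (-1.47) in samples with Y-linked calls, for Cldn6 (0.077) in promoter peaks, for the start site peak of Slc7a7 after thinning (-0.13), and by Fisher's exact test for the start site peaks of Slc22a12, Slc6a19 and Jag1 (-3.13, -3.72 and -5.20 points of nuclei). The cause of these differences was not tested. The 547 and 557 PCT nuclei at P0 limit precision, and peaks open in under about 0.5% of them cannot be told from closed.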
